A study of Homo sapiens with 6 samples.

Results

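DNA replication and S-phase genes were followed in K562 cells after inhibition of EZH2, the catalytic subunit of Polycomb repressive complex 2 (PRC2). They are 47 named genes of 60671 in the count files, chosen by symbol from what their proteins do in replication or S phase entry. The choice was made with earlier results of these data known. All 47 had enough reads to be tested among 12364 genes. K562 is a human chronic myeloid leukemia line, and every library came from a single clone of it carrying Flag-NLS-M.CviPI-Lamin-B1, a doxycycline-inducible fusion of a GpC methyltransferase to Lamin B1. Cultures were treated for 72 hours either with 1 µM GSK343, an EZH2 inhibitor (EZH2i, 3 libraries), or with 0.1% DMSO as vehicle (3 libraries), and both groups received 1 µg/mL doxycycline for the last 24 hours, so no library lacks the induced fusion. Each library came from a separate culture. As all cultures descend from 1 clone, the p-values measure the spread between cultures of that clone.

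Before each cell division, the origin recognition complex (ORC), CDC6 and CDT1 load the MCM2 to MCM7 ring on DNA during G1 phase. At the start of S phase, CDC45 and the GINS complex turn this ring into a running helicase, and primase, polymerases, the PCNA clamp and ligase copy both strands. Many of these genes are switched on together at the G1/S boundary by E2F transcription factors and cyclin E, and K562 cells, which divide continuously, keep them active.

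Depth ranged from 6327544 to 8987768 reads on genes per library, and the members had between 67 and 3578 reads in a library. Reads outside annotated genes made up 12.7% of those listed in EZH2i replicate 3 and 7.43% to 8.51% in the other libraries, and their part in the results was not tested. Levels are given as CPM, counts brought to a common library size with TMM factors. Reads come from the 3' end of each transcript, so CPM are compared between libraries for 1 gene and not between genes. The 9 erythroid markers of K562, which include *GATA1* and *TAL1*, were expressed in every library, at a summed 938 ± 70.5 CPM in DMSO and 1036 ± 38.7 CPM in EZH2i (SD, n = 3 each). Of these 9, the globin genes *HBZ* (log2 fold change 1.153, edgeR adjusted p = 6.14e-05) and *HBG2* (0.58, edgeR adjusted p = 0.0251) passed as higher, *HBG2* not once any DMSO library was left out, and the other 7 did not pass. Of 13 markers of T cells, B cells, myeloid cells and fibroblasts, *MS4A1* and *ELANE* were at 0 in every library, and the sum was 80.7 to 89.0 CPM in DMSO and 113 to 133 CPM in EZH2i, of which *CD3D*, *LYZ* and *COL1A1* passed the test as higher, *CD3D* in 2 and *LYZ* in none of the 6 fits without 1 library. The part of both marker lists in the results below was not tested. Bulk libraries cannot tell fewer cells in S phase from less RNA of these genes per cell.

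After EZH2 inhibition, 4 of the 47 genes passed the test, all of them lower: *CDC45*, *RFC4*, *FEN1* and *RRM1* (adjusted p under 0.05, quasi-likelihood test of edgeR, adjusted by Benjamini-Hochberg over all 12364 genes). No replication gene passed as higher in edgeR or DESeq2, and 17 had an unadjusted p under 0.05 in edgeR, 16 of them lower and 1, *ORC4*, higher. Over all tested genes 4.26% were called, 0.922% lower and 3.34% higher, against 8.51% of the replication genes lower and none higher. An unadjusted p under 0.05 was found for 19.1% of all tested genes in either direction, and with a lower level for 8.21%. The fitted changes were small, with log2 fold changes from -0.53 to 0.31. Their median was -0.22, and 43 of the 47 lay below 0 (40 when scaled by library size alone and 46 in DESeq2). Among all genes tested the median was -0.00021 and 6186 of the 12364 lay below 0, while among the 7992 genes expressed at least as highly in DMSO as the lowest replication gene the median was -0.035 and 56.5% lay below 0. That cut ranks genes by CPM and used the DMSO level alone, which is 1 side of the comparison. Such a cut by itself favors values below 0, and its part in the 56.5% was not tested. The 47 replication genes share cultures and regulators, so the 43 are not independent observations, and no test over the list was made.

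Levels were also compared library by library. Every EZH2i library lay below every DMSO library for 16 of the 47 genes, or 34.0%, compared with 11.1% of the genes tested. The opposite order was found for 1 replication gene, *ORC4*, and for 13.3% of all tested genes. Taken as log2 ratios to each gene's DMSO mean, the library medians in order of replicate were 0.048, -0.033 and -0.056 for DMSO and -0.16, -0.19 and -0.26 for EZH2i, so the medians of the groups did not overlap. Summed over the 47 genes, the level was 4949 ± 145 CPM in DMSO and 4179 ± 107 CPM in EZH2i (SD, n = 3 each). DMSO replicate 1 held the highest level of 24 members, and among the EZH2i libraries replicates 1 and 3 each held the lowest level of 18 members.

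**Figure D1:**
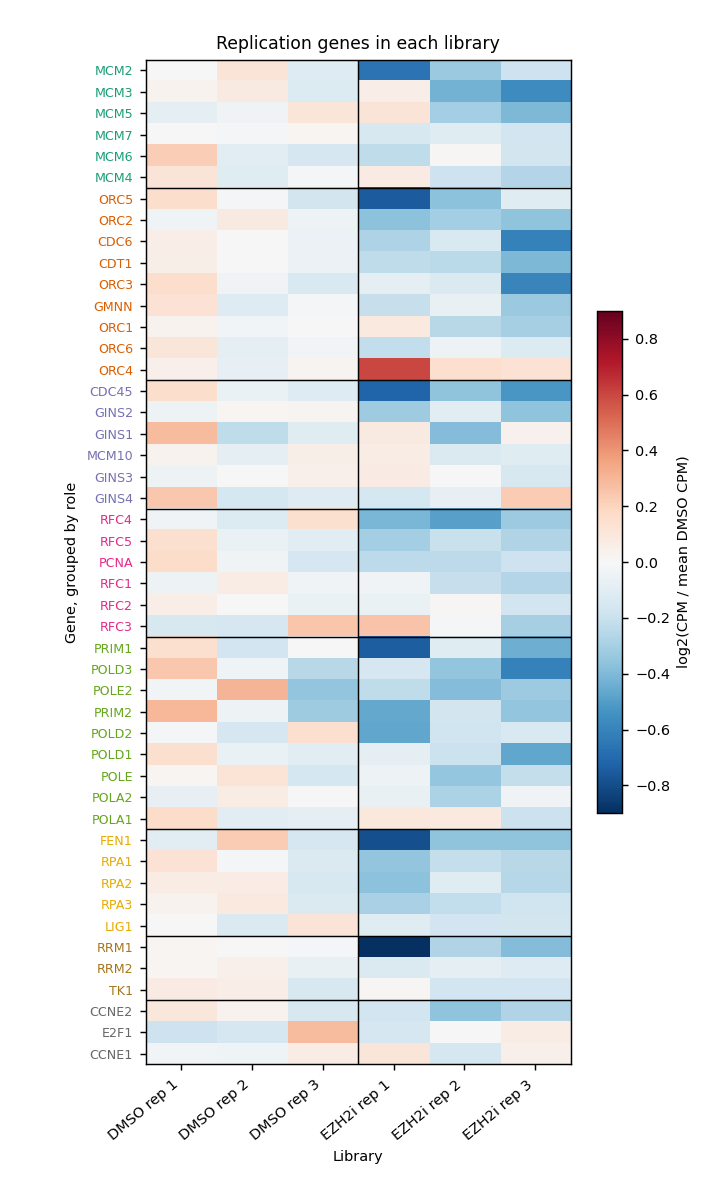
Heat map of the 47 replication genes (rows, grouped and colored by role) in the 6 libraries (columns), with color giving the log2 ratio of a gene's CPM to its mean CPM in DMSO. The EZH2i columns are mostly blue (lower), with library medians of -0.16, -0.19 and -0.26, *ORC4* is red in all of them, and replicate 1 shows both deep blue cells such as *RRM1* and pale red ones such as *MCM3*.

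Helicase activation and nucleotide supply each held 1 called gene. *CDC45* (ENSG00000093009; chromosome 22 of GRCh38, 19479457 to 19520612) encodes the subunit that joins the MCM ring and GINS in the active helicase. Its level, in replicates 1, 2 and 3, was 259.6, 223 and 214 CPM with DMSO and 141, 180.4 and 161 CPM with EZH2i. All EZH2i libraries lay below all DMSO libraries, and *CDC45* fell by 30.7% in the fit (log2 fold change -0.53, standard error 0.115, edgeR adjusted p = 0.0152). None of the other 5 helicase activation genes passed. *GINS2*, a GINS subunit, was at 43.6, 45.6 and 45.6 CPM in DMSO and 36.03, 42.1 and 34.95 CPM in EZH2i, also without overlap, but with an adjusted p of 0.261 in edgeR's test. *GINS1*, *GINS3*, *GINS4* and *MCM10*, which helps to start the helicase, had log2 fold changes between -0.068 and 0.016, all smaller in size than their standard errors. Exons of *GSE1* overlap *GINS2* on the opposite strand, and the strand setting of the counting is not given in the sources used here, so reads of such pairs cannot be told apart.

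*RRM1* (ENSG00000167325; chromosome 11, 4094707 to 4138932), the large subunit of ribonucleotide reductase, which makes the deoxyribonucleotides used for DNA synthesis, had nearly equal levels of 369.7, 365 and 359.9 CPM in the DMSO libraries. In EZH2i replicates 1, 2 and 3 it was at 193, 302 and 278 CPM, lower in each but unevenly so, with an SD of 57.2 against 4.88 in DMSO. The log2 fold change was -0.50 (standard error 0.132, edgeR adjusted p = 0.0411), and it was -0.33 without EZH2i replicate 1, the lowest library, with the call kept. *RRM2*, the small subunit of the same enzyme, was at 137, 139.9 and 129.6 CPM in DMSO and 124, 128 and 125 CPM in EZH2i. The groups did not overlap for *RRM2*, yet its log2 fold change was only -0.11 (edgeR adjusted p = 0.593). *TK1*, thymidine kinase of the salvage pathway, had a log2 fold change of -0.11 (edgeR adjusted p = 0.634). Whether *RRM1* and *RRM2* differ in their response was not tested.

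Among genes of the clamp and strand processing, *FEN1* and *RFC4* passed. *FEN1* (ENSG00000168496; chromosome 11, 61792911 to 61797238), the flap endonuclease that trims Okazaki fragments, was at 235, 294 and 226 CPM in DMSO and at 146, 196 and 196 CPM in EZH2i, replicates in order. It fell by 28.9% (log2 fold change -0.49, standard error 0.13, edgeR adjusted p = 0.0405), with no overlap between groups. *FADS2* has exons over *FEN1* on the same strand, with 965 reads of its own over all libraries, so the *FEN1* count is uncertain by the reads they share. *RFC4* (ENSG00000163918; chromosome 3, 186789880 to 186807058), a subunit of the complex that loads PCNA, was at 112, 106 and 127 CPM in DMSO and 86.4, 81.96 and 91.5 CPM in EZH2i. Its groups were also apart, and it fell by 24.6% (log2 fold change -0.41, standard error 0.107, edgeR adjusted p = 0.0397). Exons of *EIF4A2*, with 8086 reads over all libraries, overlap *RFC4* on the opposite strand.

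The other clamp loader subunits, *RFC1*, *RFC2*, *RFC3* and *RFC5*, did not pass, with log2 fold changes of -0.16, -0.07, -0.00055 and -0.25 and a smallest adjusted p of 0.31 in edgeR's test. *PCNA*, the sliding clamp, was at 182, 159 and 146 CPM in DMSO and 138, 138 and 143 CPM in EZH2i, without overlap (edgeR adjusted p = 0.272). *RPA1*, *RPA2* and *RPA3*, which together coat single-stranded DNA, had log2 fold changes of -0.27, -0.24 and -0.23. Of these, *RPA1* had the smallest adjusted p, 0.165 (edgeR), from 116, 105 and 97.02 CPM in DMSO and 83.03, 91.3 and 89.1 CPM in EZH2i. Opposite-strand exons of other genes also overlap *RFC5* (*WSB2*), *RPA1* (*SMYD4*), *RPA3* (*UMAD1*), *MCM7* (*AP4M1*) and *CCNE2* (*INTS8*). Annotated pseudogene copies of *PCNA*, *FEN1*, *RRM2* and *RPA3* held 0 to 2 reads each over all libraries. *LIG1*, the ligase that seals Okazaki fragments, had a log2 fold change of -0.15 (edgeR adjusted p = 0.471).

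**Figure D2:**
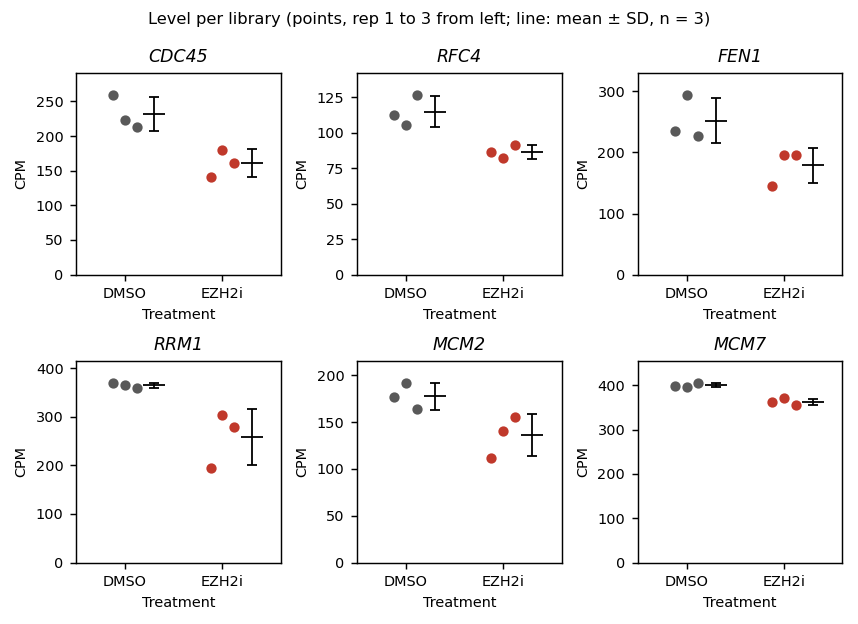
CPM (y axis, from 0) of the 4 genes that passed the test and of *MCM2* and *MCM7* in each DMSO and EZH2i library, with points for replicates 1 to 3 from left to right and a line with bars for the mean ± SD (n = 3). No panel has an EZH2i point above the lowest DMSO point, and *RRM1* shows 3 close DMSO libraries beside EZH2i libraries from 193 to 302 CPM.

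The 6 subunits of the MCM ring were each below 0 in the fit, and none passed the test in edgeR or DESeq2. Of them 1 had an unadjusted p under 0.05 in edgeR, against 19.1% of all tested genes in either direction. *MCM2* came closest, at 177, 192 and 164 CPM in DMSO and 112, 141 and 156 CPM in EZH2i. Its EZH2i libraries all lay below its DMSO libraries, with a log2 fold change of -0.38 (standard error 0.121, edgeR adjusted p = 0.0875). *MCM7* was also separated, and with much tighter groups, at 399, 396 and 406 CPM in DMSO and 363, 371 and 356 CPM in EZH2i, yet its log2 fold change was -0.14 (edgeR adjusted p = 0.44). The other 4 subunits overlapped between groups. *MCM3* was at 186, 193 and 168 CPM in DMSO and 189.8, 136 and 123 CPM in EZH2i, so that EZH2i replicate 1 lay among the DMSO libraries while replicates 2 and 3 lay below them (log2 fold change -0.28, edgeR adjusted p = 0.264). *MCM5* had EZH2i replicate 1 highest of all and replicates 2 and 3 below DMSO, at 107, 111 and 122 CPM in DMSO and 123, 91.7 and 85.5 CPM in EZH2i (log2 fold change -0.18). Without EZH2i replicate 1 the value for *MCM5* was -0.35 (edgeR adjusted p = 0.0532), and without EZH2i replicate 3 it was -0.082. *MCM4* was at 174, 149 and 159 CPM in DMSO and 169, 141 and 134 CPM in EZH2i (log2 fold change -0.12), again with only replicates 2 and 3 below DMSO. *MCM6*, at 149, 120.3 and 115 CPM in DMSO and 109, 129 and 114 CPM in EZH2i, had its highest level in DMSO replicate 1, and its log2 fold change of -0.12 was -0.0023 without that library. For *MCM3* the value was -0.49 without EZH2i replicate 1 and -0.16 without EZH2i replicate 3, and for *MCM4* it was -0.22 and -0.049 in the same fits, and -0.057 without DMSO replicate 1. EZH2i replicate 1 was thus the lowest EZH2i library for *MCM2* and *MCM6* and the highest for *MCM3*, *MCM4* and *MCM5*.

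Origin recognition and licensing genes gave 8 of 9 values below 0 and no call. In edgeR 5 had an unadjusted p under 0.05 in either direction, among them *ORC4*, which was higher. The share of all tested genes in either direction was 19.1%. *CDT1*, the loader of the MCM ring, was at 233, 224 and 217 CPM in DMSO and 192, 189.8 and 169.7 CPM in EZH2i (log2 fold change -0.29, edgeR adjusted p = 0.112). *CDC6*, its partner, was at 79.3, 75.9 and 73.5 CPM in DMSO and 62.9, 69.2 and 50.1 CPM in EZH2i (log2 fold change -0.33, edgeR adjusted p = 0.144). *ORC2* was at 32.2, 34.9 and 32.1 CPM in DMSO and 25.6, 26.7 and 25.8 CPM in EZH2i (log2 fold change -0.35, edgeR adjusted p = 0.129). Without EZH2i replicate 3 the value for *CDC6* was -0.21. For all 3 genes the groups were apart, and the adjusted p still missed the threshold. *GMNN*, geminin, which binds and blocks CDT1, had a log2 fold change of -0.20 (edgeR adjusted p = 0.336), the same sign as that of *CDT1*. *ORC4* had the highest log2 fold change of all members, 0.31 (edgeR adjusted p = 0.255), at 27.4, 25.2 and 26.9 CPM in DMSO and 40.1, 29.4 and 28.9 CPM in EZH2i. Its EZH2i libraries were all above DMSO, but replicate 1 stood highest, and without it the log2 fold change was 0.14. Exons of *MBD5* and *ACVR2A* overlap *ORC4* on the opposite strand. *ORC5*, *ORC3*, *ORC1* and *ORC6* had log2 fold changes of -0.38, -0.25, -0.14 and -0.13. Leaving out a library moved them to between -0.54 and -0.23 for *ORC5*, -0.33 and -0.11 for *ORC3*, -0.27 and -0.07 for *ORC1*, and -0.17 and -0.073 for *ORC6*.

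None of the 9 polymerase and primase genes passed in edgeR, and none had groups that were apart in either direction. An unadjusted p under 0.05 was found for 3 of them, against 19.1% of all tested genes in either direction. *PRIM1*, the catalytic primase subunit, had a log2 fold change of -0.40 with all libraries (edgeR adjusted p = 0.11), at 137, 109.7 and 124 CPM in DMSO and 73.95, 114 and 91.2 CPM in EZH2i. One EZH2i library, replicate 2, reached into the DMSO range. The log2 fold change of *PRIM1* was -0.26 without EZH2i replicate 1 (edgeR adjusted p = 0.23). *PRIM1* overlaps exons of the abundant *NACA* on the same strand. The remaining primase and polymerase genes, which include the catalytic subunits *POLA1*, *POLD1* and *POLE*, ranged from -0.35 for *POLD3* to 0.0052 for *POLA1* with all libraries, and *POLD3* was at -0.22 without DMSO replicate 1.

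The 3 G1/S regulators had no call and no unadjusted p under 0.05 in edgeR. *E2F1*, the transcription factor that activates many replication genes, was at 23.1, 23.8 and 32.1 CPM in DMSO and 23.7, 26.4 and 27.6 CPM in EZH2i (log2 fold change -0.03, standard error 0.15, edgeR adjusted p = 0.942). *CCNE1*, a cyclin E gene that drives entry into S phase, was at 45.4, 45.00 and 48.3 CPM in DMSO and 49.8, 41.4 and 47.7 CPM in EZH2i (log2 fold change 0.00056, standard error 0.117, edgeR adjusted p = 0.999). *CCNE2*, its paralog, had lower levels in every EZH2i library, 13.9, 12.2 and 13.03 CPM against 16.9, 16.03 and 14.2 CPM in DMSO, but few reads (91 to 135 in a library) and an adjusted p of 0.395 in edgeR's test. Its log2 fold change was -0.26 with a standard error of 0.161. The sign for *E2F1* and *CCNE1* changed with the scaling.

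**Figure D3:**
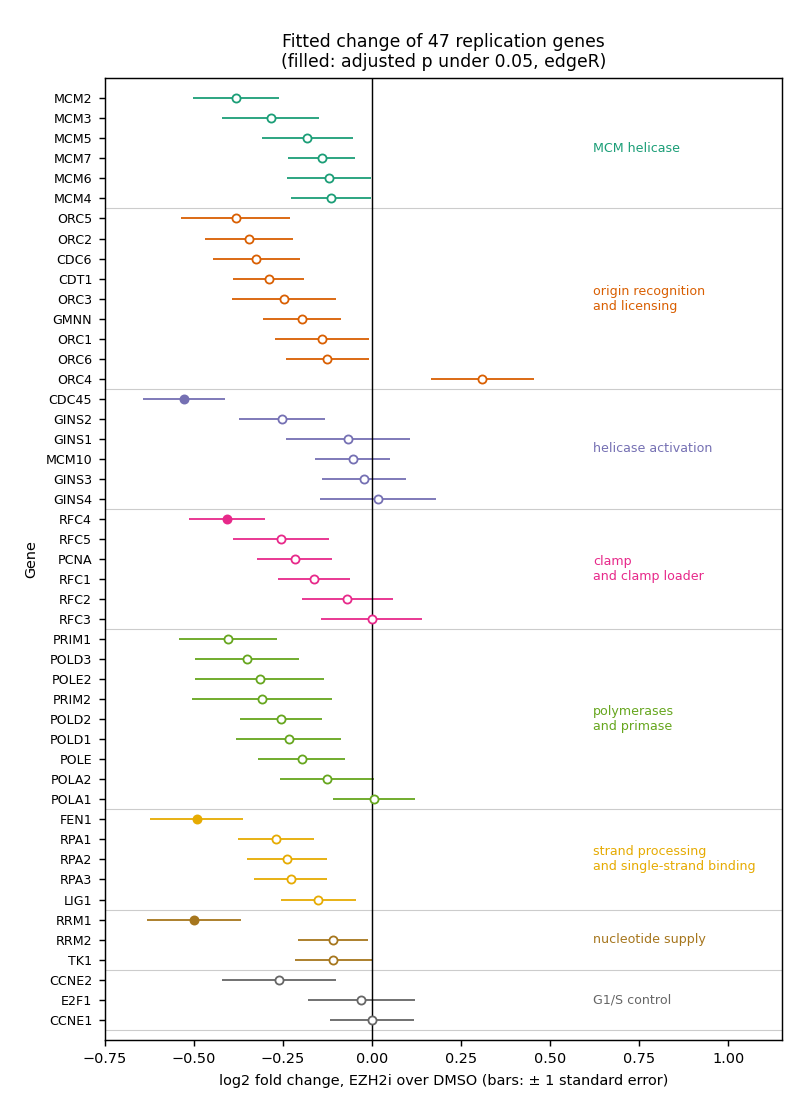
Fitted log2 fold change (x axis, EZH2i over DMSO) of each of the 47 replication genes, with bars of ± 1 standard error, grouped by role and filled where the adjusted p was under 0.05. Of the points, 43 lie left of 0 and 4 are filled, *CDC45*, *RFC4*, *FEN1* and *RRM1*, while *ORC4* at 0.31 is the only member well to the right.

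Promoters were examined for sequence that the choice of genes did not use. RefSeq windows of 300 bases on GRCh38.p14, 250 before to 50 after a transcription start, were given for 40 of the 47 genes. They were searched on both strands for the E2F motifs TTTCCCGC, TTTGGCGC, TTTCGCGC and TTTGCCGC, the CCAAT box CCAAT, and the CHR elements TTTGAA and TTTAAA, a site type known from cell cycle genes. Different motifs overlapped in 2 places in the members' windows. An E2F motif was found for 19 of the 40 genes, 47.5%, and for 3.99% of 27305 genes with a window. A CCAAT box was found for 62.5% of the members and 39.7% of all genes, and a CHR element for 6 of the 40 members and 27.9% of all genes. The 19 genes with an E2F motif had a median log2 fold change of -0.20 and held 0 of the 4 calls. The 21 without one had a median of -0.25 and held all 4 calls. For the CCAAT box the medians were -0.20 with and -0.23 without a match, with 2 calls in each, and for the CHR elements both medians were -0.21, with 2 calls among the 6 genes with a match and 2 among the 34 without. None of these differences was tested. A match is not evidence of binding, and its absence says only that these letters are not in the window.

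The windows of the 4 called genes and of 3 licensing genes with an E2F motif follow, read 5' to 3' on each gene's strand in lower case, with motif matches in capitals, so that the windows without and with an E2F match can be compared. They lie at chr22:19479216-19479515 on the plus strand (*CDC45*), chr3:186806433-186806732 on the minus strand (*RFC4*), chr11:61792661-61792960 on the plus strand (*FEN1*), chr11:4094435-4094734 on the plus strand (*RRM1*), chr3:127598161-127598460 on the plus strand (*MCM2*), chr16:88803539-88803838 on the plus strand (*CDT1*) and chr17:40287629-40287928 on the plus strand (*CDC6*). For *CDC45*, 1 of 3 windows is shown, that nearest the start of the gene. It holds TTTAAA at 101 and 89 bases before the start, and the CCAAT boxes counted for *CDC45* lie in its windows not shown.
CDC45: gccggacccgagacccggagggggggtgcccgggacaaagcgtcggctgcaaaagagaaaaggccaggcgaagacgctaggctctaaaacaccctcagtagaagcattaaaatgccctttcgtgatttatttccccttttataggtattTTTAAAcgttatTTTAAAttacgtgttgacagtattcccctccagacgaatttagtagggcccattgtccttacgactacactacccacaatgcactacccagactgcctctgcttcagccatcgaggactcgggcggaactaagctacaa
RFC4: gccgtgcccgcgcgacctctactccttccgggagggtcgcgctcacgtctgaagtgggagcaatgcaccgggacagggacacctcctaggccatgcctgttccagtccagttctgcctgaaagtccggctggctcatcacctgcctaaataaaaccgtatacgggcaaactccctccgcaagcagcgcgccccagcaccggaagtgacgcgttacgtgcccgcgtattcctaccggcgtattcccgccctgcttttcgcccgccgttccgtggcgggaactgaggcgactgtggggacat
FEN1: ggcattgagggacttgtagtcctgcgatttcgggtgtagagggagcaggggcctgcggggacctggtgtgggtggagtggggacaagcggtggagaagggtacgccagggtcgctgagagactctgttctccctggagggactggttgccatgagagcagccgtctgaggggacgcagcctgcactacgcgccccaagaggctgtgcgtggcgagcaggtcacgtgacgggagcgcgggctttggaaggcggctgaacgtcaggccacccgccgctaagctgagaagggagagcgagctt
RRM1: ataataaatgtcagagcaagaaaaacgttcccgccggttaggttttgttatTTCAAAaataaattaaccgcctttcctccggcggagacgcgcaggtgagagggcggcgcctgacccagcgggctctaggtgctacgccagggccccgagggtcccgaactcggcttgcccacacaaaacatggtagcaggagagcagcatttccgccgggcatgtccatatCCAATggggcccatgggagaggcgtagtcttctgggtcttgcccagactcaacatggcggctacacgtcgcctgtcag
MCM2: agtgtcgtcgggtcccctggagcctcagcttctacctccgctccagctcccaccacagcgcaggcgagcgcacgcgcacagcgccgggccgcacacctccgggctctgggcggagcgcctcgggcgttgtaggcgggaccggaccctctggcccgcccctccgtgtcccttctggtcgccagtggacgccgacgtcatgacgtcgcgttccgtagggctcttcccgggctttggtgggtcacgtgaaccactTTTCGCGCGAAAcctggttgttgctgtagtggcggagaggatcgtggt
CDT1: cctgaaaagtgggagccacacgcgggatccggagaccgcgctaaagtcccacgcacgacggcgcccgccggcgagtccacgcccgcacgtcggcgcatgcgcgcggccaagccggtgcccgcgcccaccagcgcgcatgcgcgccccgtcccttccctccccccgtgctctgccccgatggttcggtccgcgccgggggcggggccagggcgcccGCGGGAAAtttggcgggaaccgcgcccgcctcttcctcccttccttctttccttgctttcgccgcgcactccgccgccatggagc
CDC6: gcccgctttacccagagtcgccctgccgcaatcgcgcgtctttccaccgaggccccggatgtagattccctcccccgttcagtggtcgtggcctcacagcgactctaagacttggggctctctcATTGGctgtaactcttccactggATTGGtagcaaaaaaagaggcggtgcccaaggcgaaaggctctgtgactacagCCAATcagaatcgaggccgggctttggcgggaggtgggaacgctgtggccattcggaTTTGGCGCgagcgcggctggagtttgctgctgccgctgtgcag

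The *RRM1* window has a CCAAT box that begins 28 bases before the start and TTTGAA on the opposite strand 199 bases before it, and those of *RFC4* and *FEN1* have no match to any of the motifs. The only *RFC4* window does not reach the GENCODE start of that gene at 186807058, so sequence around that start was not searched. In *MCM2* the capitals are TTTCGCGC read on both strands, so that the matches overlap just after the start. *CDT1* has TTTCCCGC on the opposite strand 35 bases before its start, and *CDC6* has TTTGGCGC after its start and 3 CCAAT boxes before it.

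Beyond the 47, a list of 50 other genes of replication and S phase, of which 49 were tested, gave 3 calls, all lower, which is 6.12% against 0.922% of all tested genes. This list was also chosen with earlier results of these data known, so its shares are no independent check on the 47 genes. *CDC25A*, a phosphatase that activates CDK2 at S phase entry, fell from 60.5 ± 5.65 to 41.4 ± 5.53 CPM (SD, 3 libraries a group), a log2 fold change of -0.54 (edgeR adjusted p = 0.0218). *DONSON*, a factor of helicase assembly and fork stability, fell from 101 ± 4.22 to 77.1 ± 7.30 CPM (SD, 3 libraries a group), a log2 fold change of -0.39 (edgeR adjusted p = 0.045), and it did not pass with the replicate block (adjusted p = 0.0585, edgeR) or with library size alone (adjusted p = 0.0685, edgeR). *MCMBP*, a binding protein of MCM subunits, fell from 24.3 ± 3.05 to 15.7 ± 1.94 CPM (SD, 3 libraries a group), a log2 fold change of -0.63 (edgeR adjusted p = 0.0309). The median of the 49 was -0.19, with 41 below 0, and in 20 of them, 40.8% against 11.1% of all tested genes, every EZH2i library lay below every DMSO library. *CDK2*, *NASP*, *SLBP* and *DSCC1* were among these 20 and did not pass (edgeR adjusted p = 0.0798, 0.093, 0.0564 and 0.0875), although *NASP* did in DESeq2 (adjusted p = 0.0285) and *SLBP* in edgeR with no filter (adjusted p = 0.025) and without DMSO replicate 3 (adjusted p = 0.0447), and were picked after their values were seen. A list of 25 genes of G2 and mitosis, 24 of them tested, had no call in edgeR or DESeq2 and no unadjusted p under 0.05 in edgeR's test, a median of -0.042, 15 values below 0 and 4 genes, 16.7%, with every EZH2i library below every DMSO library. Their summed level was 6080 ± 522 CPM in DMSO and 6018 ± 84.4 CPM in EZH2i (SD, n = 3 each). In the other replication list no gene passed without DMSO replicate 1 or 2, and 1 without EZH2i replicate 3, fits in which 0.258%, 0.158% and 0.82% of all tested genes were called lower, and *DONSON* kept its call in 1 of the 6 fits without a library. The lists were not tested against each other.

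**Figure D4:**
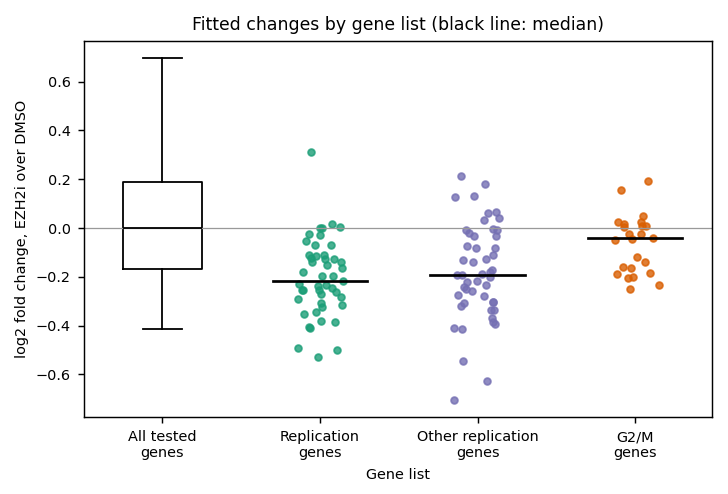
Fitted log2 fold changes (y axis, EZH2i over DMSO) of all tested genes (box from the 25th to the 75th percentile with whiskers at the 5th and 95th) and of each gene in 3 lists (points), with medians as black lines. The medians are -0.00021 for all genes, -0.22 for the 47 replication genes, -0.19 for the other replication genes and -0.042 for the G2/M genes.

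The 4 calls rest on small margins. Leaving out a library in turn, *CDC45* kept its call in 5 of 6 fits and lost it without DMSO replicate 1 (edgeR adjusted p = 0.1). *RRM1* kept it in 3 of 6 and lost it each time a DMSO library was removed (edgeR adjusted p = 0.135, 0.131 and 0.109 for replicates 1, 2 and 3). *FEN1* kept it in 2 of 6, with adjusted p from edgeR of 0.0405 to 0.215, the highest without DMSO replicate 2, and *RFC4* in 1 of 6, from 0.0358 to 0.16, the highest without DMSO replicate 3. Conversely *MCM3* passed without EZH2i replicate 1 (edgeR adjusted p = 0.00775), *PRIM1* without EZH2i replicate 2 (edgeR adjusted p = 0.0245) and *MCM2* without EZH2i replicate 3 (edgeR adjusted p = 0.0468). Calls of lower genes over the whole table also became fewer in most of these fits, to 0.258%, 0.158% and 0.434% of the genes tested without DMSO replicates 1, 2 and 3 and to 0.626% and 0.82% without EZH2i replicates 2 and 3, and stood at 0.973% without EZH2i replicate 1, against 0.922% with all libraries. Of the 43 genes not called, 30 had a log2 fold change that moved by over 1.5 times in at least 1 of these fits, so the order of single members is not firm. No log2 fold change of a called gene changed sign, and the median of the 47 genes stayed between -0.24 and -0.16. Under other settings 3 to 6 of the 47 genes were called lower, where the share of all genes called lower was 0.993% in DESeq2, 0.987% with RLE size factors, 0.639% with library size alone, 1.33% with no filter, 0.869% with at least 10 counts in every library, 0.922% in limma-voom, 1.21% with a replicate block and 1.01% in edgeR with legacy = FALSE. The smallest p that an exact permutation of the 6 libraries can give for any 1 gene is 0.1.

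**Figure D5:**
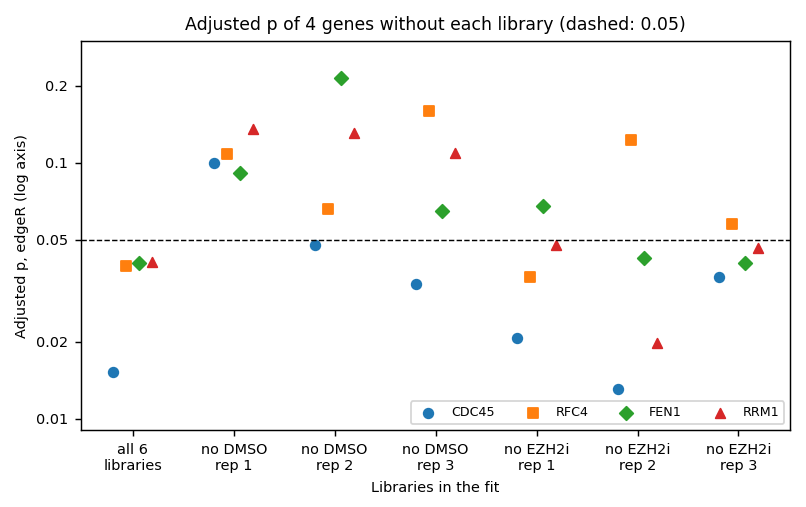
Adjusted p from edgeR (y axis, log scale) of *CDC45*, *RFC4*, *FEN1* and *RRM1* with all 6 libraries and without each library in turn, with the threshold of 0.05 dashed. Without DMSO replicate 1 all 4 points lie above the line, and without DMSO replicate 2 or 3 only *CDC45* lies below it.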

How the data were processed

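RNA was sequenced from 6 libraries (3 DMSO, 3 EZH2i) with a 3' mRNA kit of the forward type. Per the labels and the submitters' processing notes, the authors aligned reads with STAR 2.6.0c and counted them per gene with HTSeq 0.11.2. The deposited values are raw counts per gene and library. The annotation was an Ensembl release on GRCh38 named in the study, and the strand setting is not given in the sources used here. Rows that name no gene were left out, and genes held 63.6% to 67.9% of the listed reads. The authors' own table of fold changes and p-values was not used.

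Genes were filtered with filterByExpr (minimum count 10), scaled by TMM and tested with edgeR 4.0.16 (quasi-likelihood, R 4.3.3) with Benjamini-Hochberg adjustment over 12364 genes at 0.05. The standard errors given were derived from this test, as the size of the log2 fold change over the square root of the F statistic. DESeq2 1.42.0, limma 3.58.1 (voom), other scalings and filters, a replicate block and leaving out each library were alternatives. On data simulated for this comparison, edgeR recovered 82% of genes changed by 0.75 and 100% of those changed by 1.5 on the log2 scale, with 9 false calls among 12353 genes. The simulation gave every gene the same dispersion and changed only genes above a minimum mean count. It can therefore overstate recovery in the real libraries. Gene positions are from GENCODE on GRCh38 and promoter windows from RefSeq. The members and lists were chosen with earlier results of these data known. Members were named if called, if among the 10 smallest p, if first by p in their role, or if in the MCM ring. *GINS2*, *PCNA*, *RRM2*, *E2F1*, *CCNE1* and other members given with values outside that rule were chosen after their values were seen.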

Additional observations from a re-analysis of the deposited data

How the results depend on the processing

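The log2 fold changes of the 47 genes had standard errors of 0.094 to 0.197, and detection was simulated only for log2 changes of 0.75 and 1.5. Of the 47 replication genes, 4 were called in DESeq2, with RLE size factors, with 10 counts in every library, in limma-voom, in edgeR with legacy = FALSE and with the replicate block, 3 with library size alone, where *RFC4* was lost (adjusted p = 0.061, edgeR), and 6 with no filter, which added *MCM2* and *PRIM1*. Leaving out each library gave 0 to 4, with 0 without DMSO replicate 1 and 1 without DMSO replicate 2 or 3, where 33, 20 and 55 of all genes were called lower, against 114 with all libraries. Their median log2 fold change ranged from -0.242 to -0.163 when a library was left out. Over all genes the calls were 527, with 928 under no filter (579 higher, 349 lower) and 209 to 536 when a library was left out. DESeq2 called 435 genes, of which 67.1% were higher, against 78.4% of the 527. The other replication list had 5 calls under no filter, 2 with the replicate block or with library size alone, where *DONSON* was lost, and 0 to 4 when a library was left out. The G2/M list had 0 calls in every setting. Libraries with the same replicate number did not deviate together over all genes (correlations of deviations -0.051, -0.018 and -0.017). This does not settle whether the cultures were paired, and the replicate block gave 599 calls over all genes against 527. The log2 fold change changed sign under at least 1 setting for 7 of the 47 genes, none called and all within 0.068 of 0 at first, and for none of the other 40. The reversed values were -0.0036 (*GINS4*), -0.012 (*POLA1*) and -0.017 (*CCNE1*) in DESeq2, -0.0024 (*POLA1*) and -0.0074 (*CCNE1*) with RLE size factors, 0.012 (*GINS3*), 0.035 (*RFC3*) and 0.0050 (*E2F1*) with library size alone, -0.0084 (*GINS4*), -0.019 (*POLA1*) and -0.023 (*CCNE1*) with no filter, 0.0024 (*RFC3*) with 10 counts in every library, -0.0052 (*CCNE1*) in limma-voom and -0.0023 (*CCNE1*) with the replicate block. Leaving out a library gave -0.17 to 0.088 for *GINS1*, -0.069 to 0.034 for *GINS3*, -0.10 to 0.14 for *GINS4*, -0.15 to 0.15 for *RFC3*, -0.041 to 0.094 for *POLA1*, -0.11 to 0.14 for *E2F1* and -0.054 to 0.076 for *CCNE1*. The cause of these differences was not tested.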
